A study of Mus musculus with 16 samples.

Results

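The genes described here are the orphan and adhesion G protein-coupled receptors of mouse small intestinal epithelium. They were taken by symbol from the deposited expression table: every Gpr gene named by a number, every adhesion receptor gene (Adgr) and the R-spondin receptors Lgr4 and Lgr6, leaving out Gpr119 and Gpr35. The rule found 87 of the 20072 genes in the table, with 59 Gpr symbols, 26 Adgr symbols and 2 Lgr symbols. The study sorted cells from untreated mice of 8 to 16 weeks that carry Tph1-CFP, a reporter for enterochromaffin (EC) cells, which make and release most of the serotonin of the gut. Crypt EC and villus EC are the CFP-positive cells of the 2 fractions, and crypt epi and villus epi are the CFP-negative remainder, a mixture of all other epithelial types. Every group carried the reporter and received no treatment. Each of the 4 groups has 4 libraries of 5000 pooled cells. The labels do not say which library came from which mouse, so p-values measure the spread between these libraries, which may be technical.

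G protein-coupled receptors span the membrane and pass a signal from outside the cell to G protein alpha subunits, receptor kinases and arrestins. Orphan receptors are those without an agreed ligand. Adhesion receptors carry a long extracellular part that is cut by the protein itself close to the membrane, which can expose a built-in agonist. Several proteins with a Gpr symbol sit in Golgi or lysosome membranes and are not known as surface receptors. In the gut, endocrine cells use surface receptors to read nutrients, hormones and nerve signals before they release their own products.

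Values are FPKM (fragments per kilobase of transcript, on the authors' library scaling), so levels can be compared between genes per length. Column totals ran from 731415 to 1415123, the depth in reads is unknown, and no counting interval is given. All 7 EC markers listed were higher in EC than in epi at both sites, with Tph1 at 5392 ± 1175 (SD, n = 4) in crypt EC against 1.57 ± 0.563 in crypt epi. Summed Paneth markers ran from 4404 to 7112 in crypt EC, 142513 to 163902 in crypt epi and 33.5 to 80.1 in villus EC. Summed stem cell markers ran from 936 to 1475, 1486 to 1685 and 3.23 to 4.70 in the same groups. The part of Paneth and stem cell RNA in the crypt EC values was not tested. The library villus epi replicate 2 stood apart. Of the 38 receptor genes tested, 12 were more than 2-fold above and 8 more than 2-fold below the mean of the rest of its group, on the log2(FPKM + 1) scale. Over all tested genes, 22.3% were above and 23.5% below, where no other library passed 6.18% in either direction. Summed stroma markers were at 135 in that library and at most 4.15 in the other 3 of its group, and summed leukocyte markers at 61.6 and at most 8.98. The part of those cells in the receptor values was not tested. The fit shares its estimate of the spread of each gene across all groups. That library can thus widen the standard errors and raise the p-values of contrasts that hold no villus epi library, such as crypt EC against crypt epi. Results of many receptor genes are given with and without that library, and fold changes of partner genes only with it.

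The promoter regions of Gpr6 and Adgrg4, the 2 receptor genes with the largest rise in EC over epi at both sites, and of Adgrg7, the receptor gene with the largest difference in the other direction, are shown because these genes carry the cell-type contrast. Each is the 250 bases before the RefSeq start site on GRCm38.p6, the assembly of mm10, read 5′ to 3′ on the gene's strand. Capitals mark matches to the motifs searched.
Gpr6: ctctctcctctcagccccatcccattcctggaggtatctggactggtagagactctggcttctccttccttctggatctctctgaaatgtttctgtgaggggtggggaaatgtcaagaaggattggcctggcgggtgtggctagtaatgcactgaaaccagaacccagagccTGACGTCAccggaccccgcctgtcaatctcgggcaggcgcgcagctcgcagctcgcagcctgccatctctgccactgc
Adgrg4: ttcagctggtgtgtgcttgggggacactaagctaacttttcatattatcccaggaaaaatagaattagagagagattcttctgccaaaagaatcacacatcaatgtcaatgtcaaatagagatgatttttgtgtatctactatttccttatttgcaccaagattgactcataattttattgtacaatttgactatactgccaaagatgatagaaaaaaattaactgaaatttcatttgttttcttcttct
Adgrg7: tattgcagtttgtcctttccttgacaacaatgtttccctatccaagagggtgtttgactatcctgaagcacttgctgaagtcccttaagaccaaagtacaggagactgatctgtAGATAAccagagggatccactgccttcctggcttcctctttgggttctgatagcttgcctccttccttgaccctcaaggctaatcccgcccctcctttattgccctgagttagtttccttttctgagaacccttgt

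The Gpr6 stretch is chr10:41072291-41072540 on the minus strand, ahead of the annotated gene (chromosome 10, 41069977 to 41072285), the Adgrg4 stretch chrX:56893984-56894233 on the plus strand, inside the annotated gene (chromosome X, 56870163 to 57001558), and the Adgrg7 stretch chr16:56795859-56796108 on the minus strand, ahead of the annotated gene (chromosome 16, 56724609 to 56795855). The Gpr6 stretch was 58.4% G and C with 9 CpG pairs, against a median of 6 over all RefSeq promoters. Adgrg4 had 31.6% G and C and 0 CpG pairs, and Adgrg7 47.2% and 1. A full cyclic AMP response element (TGACGTCA) began 78 bases before the Gpr6 start (position -78). Among the 80 promoter windows of the 62 receptor genes that matched RefSeq (300 bases, with 50 after the start), Gpr6 held the only copy, and 1.79% of 32851 windows of that length in the table hold one. The GATA-type letters AGATAA lay at -136 in Adgrg7. They occur in 11.2% of all windows and 8.75% of the receptor windows.

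A total of 6 motifs was searched on both strands. Besides those 2, the NEUROD-type E-box CAGATG was in 17.2% of all and 17.5% of the receptor windows, the CDX-type TTTATGG in 2.75% and 3.75%, the homeodomain core TAATTA in 5.29% and 5%, and the HNF4-type CAAAGTCCA in 0.475% and 1.25%. No motif searched is contained in another. Of the 11 receptor genes higher in EC at both sites, 9 had a window. Gpr6 held the cyclic AMP element, Gpr142 and Gpr55 the E-box and Gpr85 the GATA letters. These are matches of letters and were not tested for binding.

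Of the 87 genes, 24 reached a mean of 5 FPKM in at least 1 group and 63 did not. The 24 are Adgrg4, Gpr160, Gpr108, Gpr107, Lgr4, Gpr6, Adgrg1, Gpr89, Gpr155, Gpr39, Adgrg7, Gpr180, Adgrf5, Adgre5, Gpr137, Adgrg2, Adgrd1, Gpr142, Gpr137b, Adgra3, Gpr19, Adgrl3, Gpr157 and Adgrl2, in order of their highest group mean. The lowest of them was Adgrl2 at 5.49, and the next gene below the line was Gpr21 at 4.67. Without villus epi replicate 2, Gpr157 fell to 3.86 in villus epi and 23 genes reached the line. By group, 21 genes reached it in crypt EC and 18 in villus EC, against 15 and 17 in the epi groups of crypt and villus. The villus epi count was 12 without replicate 2, as Adgrg4 (mean of the other 3 libraries 4.30), Lgr4 (4.21), Gpr157 (3.86), Gpr19 (3.69) and Adgra3 (3.39) fell below the line there. In all 4 groups it was reached by 11 genes. It was reached in EC groups only by Gpr6, Adgrf5, Adgrg2, Gpr142 and Gpr137b, and in epi groups only by Gpr157 and Adgrl2. Without villus epi replicate 2, the first list held 8 genes, with Adgrg4, Adgra3 and Gpr19 added, and the second held Adgrl2 alone.

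**Figure D1:**
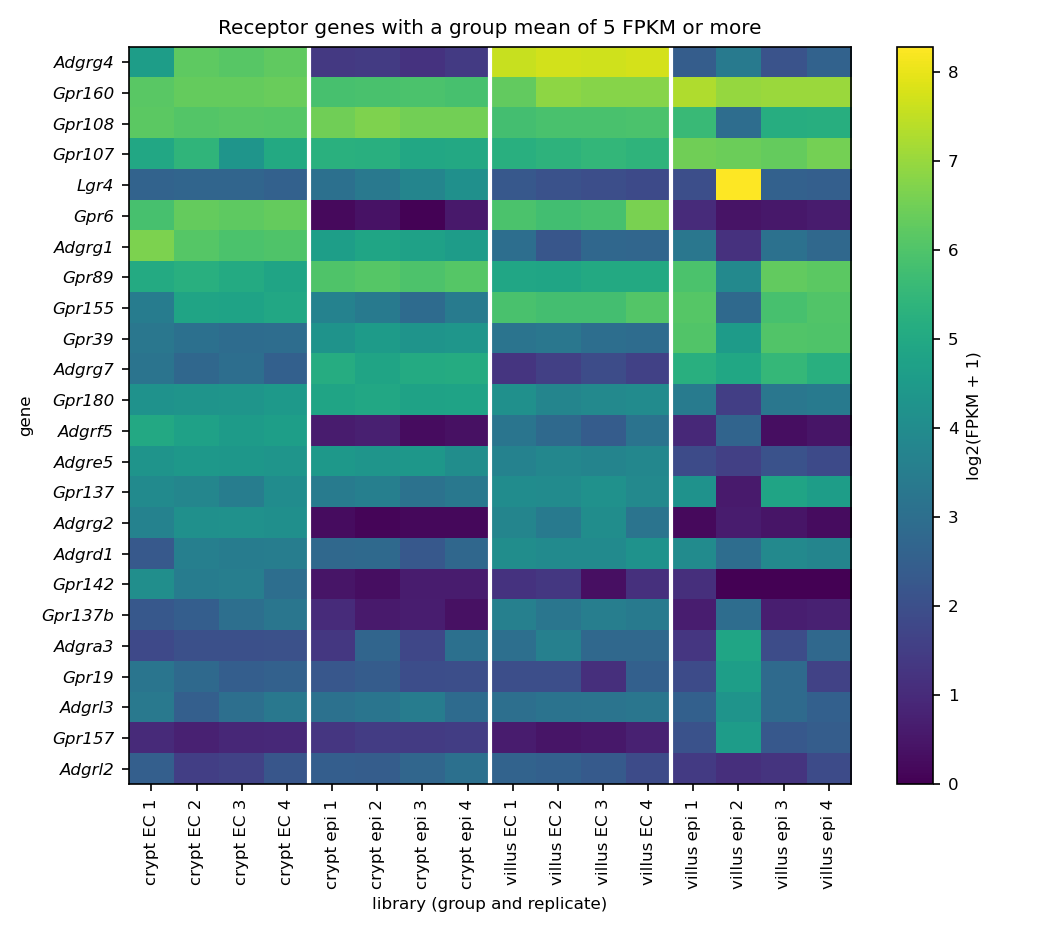
Levels of the 24 receptor genes with a group mean of 5 FPKM or more, as log2(FPKM + 1) by colour, with genes in rows and the 16 libraries in columns. Gpr6, Adgrg4 and Adgrg2 are darker in the epi columns than in the EC columns, and Lgr4 is bright in villus epi replicate 2 alone.

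The receptor genes summed to 632 ± 32.2 FPKM (SD, n = 4) in crypt EC and 729 ± 39.8 in villus EC, against 450.2 ± 15.3 and 654 ± 96.3 in the epi groups. The sum was 798 in villus epi replicate 2 and 619, 600 and 599 in replicates 1, 3 and 4. Those lower sums lie below every villus EC library (682 to 779). The leading genes differed by group. Gpr160, an orphan receptor, led in crypt EC at 78.3 ± 5.50, followed by Gpr6 (72.8 ± 10.3), Adgrg1 (72.4 ± 17.9), Gpr108 (68.8 ± 2.94) and Adgrg4 (60.6 ± 24.8). The neighbours in that order lie within each other's spread. In villus EC, Adgrg4 led at 206 ± 9.11 and made up 28.2% of the summed receptor values, ahead of Gpr160 at 104 ± 17.6 and without overlap of their libraries. Crypt epi was led by Gpr108 (93.2 ± 6.05) and Gpr89 (64.9 ± 3.08), both proteins of the Golgi. Their libraries do not overlap. In villus epi, Gpr160 (135 ± 13.8) led, above Gpr107 (86.4 ± 5.58) in every library.

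The first comparison asks which receptors set EC cells apart from their neighbours. Of the 87 genes, 38 passed the filter on low values (1 FPKM in at least 4 of 16 libraries) and were tested, and the other 49 had no group mean above 2.46. In crypt EC against crypt epi, 15 of the 38 were higher and 5 lower by limma at an adjusted p below 0.05, where 23.2% of all 14089 tested genes were higher and 20% lower (43.2% either way). The median log2 fold change was 0.55 over the receptor genes and 0.05 over all. With libraries scaled to a common sum, 22 were higher and 2 lower, beside 42.7% and 10% of all genes. In villus EC against villus epi, 15 were higher and 6 lower, beside 40.6% and 21.6% of all genes (62.2% either way), with medians of 0.46 and 0.33. The villus share of higher receptor genes is close to the background, and the crypt share of higher genes is above it. A gene abundant in 1 group alone passes the filter through that group, so these shares describe the tested genes and not all 87. Without villus epi replicate 2, the counts were 19 and 9 in crypt, beside 33.7% and 30.8% of all genes, and 19 and 7 in villus, beside 48.4% and 26.5%. The crypt count of lower genes was 3 without crypt EC replicate 2 or 3 or crypt epi replicate 1 or 2, and 2 without crypt epi replicate 3 or 4.

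**Figure D2:**
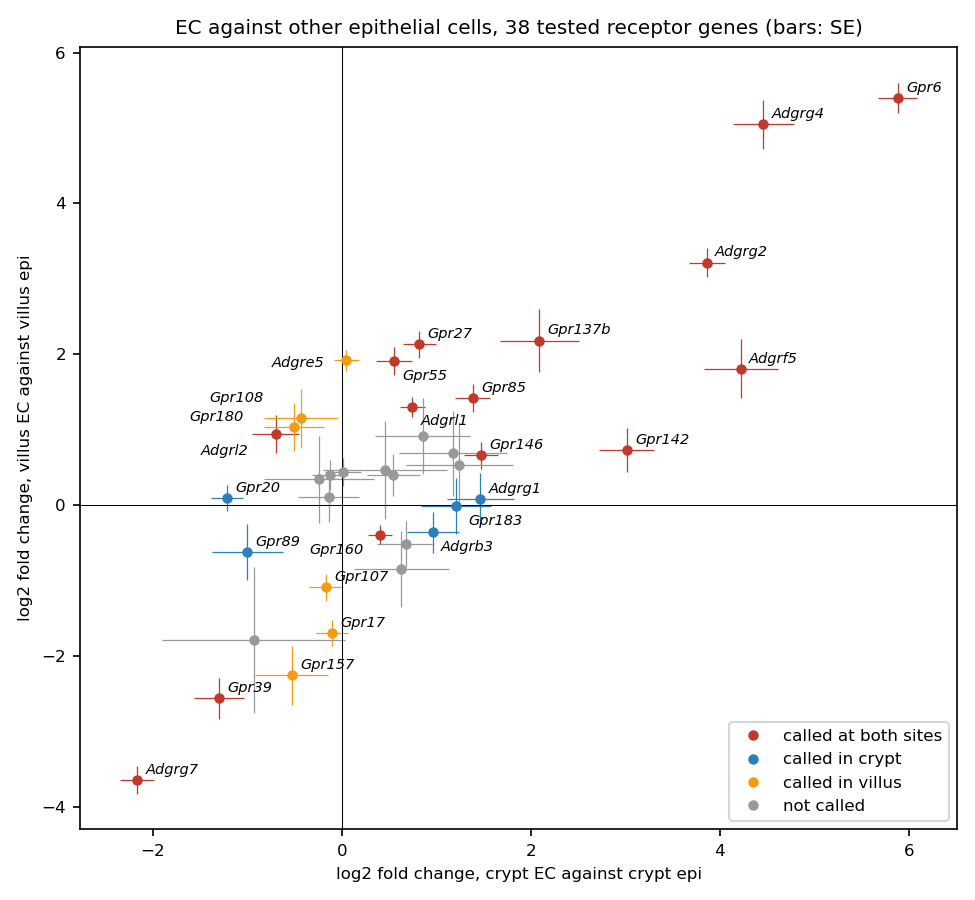
Log2 fold change of EC against epi in the crypt (x axis) and the villus (y axis) for the 38 tested receptor genes, with bars for the standard error and colours for the sites at which a gene was called. Gpr6 (5.88 and 5.40) and Adgrg4 (4.46 and 5.05) lie at the upper right, and Adgrg7 (-2.16 and -3.64) and Gpr39 (-1.30 and -2.56) at the lower left.

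Higher in EC at both sites were 11 of the 38 tested genes: Gpr6, Adgrg4, Adgrg2, Adgrf5, Gpr142, Gpr137b, Gpr85, Gpr146, Gpr27, Adgrl1 and Gpr55. The share of all tested genes higher at both sites was not counted. It cannot exceed the 23.2% of all tested genes that were higher in the crypt. In such bulk samples, fewer cells of a type and less RNA per cell cannot be told apart. Gpr6, a receptor that signals through Gs and cyclic AMP without a known ligand, was at 58.0, 80.1, 73.3 and 79.7 FPKM in crypt EC replicates 1 to 4 and at 60.2, 53.9, 58.0 and 97.3 in villus EC. No epi library exceeded 1.03, and the crypt epi values ran from 0.0455 to 0.484. The EC and epi libraries do not overlap at either site, and crypt and villus EC overlap each other. The log2 fold change was 5.88 ± 0.20 (SE) in crypt (adjusted p = 7.66e-12) and 5.40 ± 0.20 in villus (adjusted p = 8.16e-12), on the log2(FPKM + 1) scale, which understates the fold of genes near 0. Gpr3, its close relative, did not pass the filter.

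Adgrg4 (GPR112), an adhesion receptor known as a marker of EC cells and of the tumours that arise from them, was at 23.7, 73.5, 69.2 and 76.2 FPKM in crypt EC and at 194, 209, 205 and 215 in villus EC. In crypt epi it was between 1.30 and 1.69, and in villus epi at 4.41, 9.50, 3.37 and 5.12. Crypt EC replicate 1 is low, and the groups do not overlap at either site. The log2 fold change was 4.46 ± 0.32 in crypt (adjusted p = 2.04e-08) and 5.05 ± 0.32 in villus (adjusted p = 1.98e-09). Villus exceeded crypt within EC, by 1.88 ± 0.32 (adjusted p = 3.96e-04), and also within epi, by 1.29 ± 0.32 (adjusted p = 0.00295, and 1.04 with adjusted p = 0.00519 without villus epi replicate 2). Adgrg2 (GPR64), known from fluid handling in the male reproductive tract, was at 11.7, 17.1, 17.4 and 16.6 in crypt EC and at 12.8, 9.69, 15.6 and 8.21 in villus EC, with every epi library at 0.555 or less. Its log2 fold change was 3.86 ± 0.19 in crypt and 3.22 ± 0.19 in villus (adjusted p = 3.24e-10 and 1.01e-09).

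Adgrf5 (GPR116), an adhesion receptor known from lung alveolar cells, where it limits surfactant, and from blood vessel endothelium, was at 30.7, 25.7, 22.4 and 23.8 FPKM in crypt EC and between 0.215 and 0.672 in crypt epi. In villus EC it was at 8.25, 6.16, 4.37 and 7.94, and in villus epi at 0.933, 5.37, 0.229 and 0.396. The crypt groups do not overlap, and in the villus the high value of villus epi replicate 2 reaches into the EC range. The log2 fold change was 4.22 ± 0.39 in crypt (adjusted p = 3.58e-07) and 1.81 ± 0.39 in villus (adjusted p = 8.40e-04, and 2.33 with adjusted p = 6.02e-08 without that library). Of the 6 endothelial markers listed, Pecam1 and Plvap moved in the same direction in the crypt. The sum of all 6 ran from 19.5 to 36.5 in crypt EC and from 1.29 to 2.54 in crypt epi. Of the 3 that could be tested, 2 were called higher, Pecam1 (20.9 ± 8.05 against 0.887 ± 0.191) and Plvap (2.10 ± 0.559 against 0.390 ± 0.406). The other 4 had low means in both crypt groups. In crypt EC and crypt epi these were 0.0501 and 0.182 (Cdh5), 0.263 and 0.126 (Kdr), 0.216 and 0.203 (Tek) and 0.254 and 0.0744 (Emcn). In the villus, the sum ran from 15.5 to 23.2 in EC and at most 11.1 in epi without replicate 2. Pecam1 was higher in villus EC (16.7 ± 3.5 against 7.27 ± 10.6), and Tek was lower (0.412 ± 0.216 against 5.81 ± 0.687). The part of endothelial RNA in the Adgrf5 values was not tested.

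Gpr142, a receptor for tryptophan and other aromatic amino acids known from pancreatic islets, was at 16.0, 10.3, 10.6 and 6.95 FPKM in crypt EC. The other groups stayed low, with 0.248 to 0.557 in crypt epi, 0.265 to 1.57 in villus EC and 0 to 1.16 in villus epi. The crypt difference was 3.01 ± 0.29 (adjusted p = 5.92e-07) without overlap. The villus difference of 0.73 ± 0.29 (adjusted p = 0.0393) had overlapping libraries and was not called when any of 6 libraries was left out, villus epi replicate 2 among them (0.64, adjusted p = 0.0703). Those libraries were villus EC replicates 1, 2 and 4 (adjusted p = 0.0905, 0.109 and 0.0839) and villus epi replicates 3 and 4 (0.0967 and 0.0972). Gpr137b, a lysosomal membrane protein linked to growth signalling at that organelle, was at 3.86, 4.52, 7.08 and 8.55 in crypt EC and 11.2, 8.63, 10.6 and 9.55 in villus EC. It was between 0.298 and 1.04 in crypt epi and at 0.575, 6.87, 0.620 and 0.688 in villus epi. The log2 fold change was 2.09 ± 0.42 in crypt (adjusted p = 7.60e-04) and 2.18 ± 0.42 in villus (adjusted p = 2.92e-04, and 2.75 with adjusted p = 1.16e-08 without villus epi replicate 2). A near-identical copy, Gpr137b-ps, could share reads with it and had no group mean of 1 or more.

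**Figure D3:**
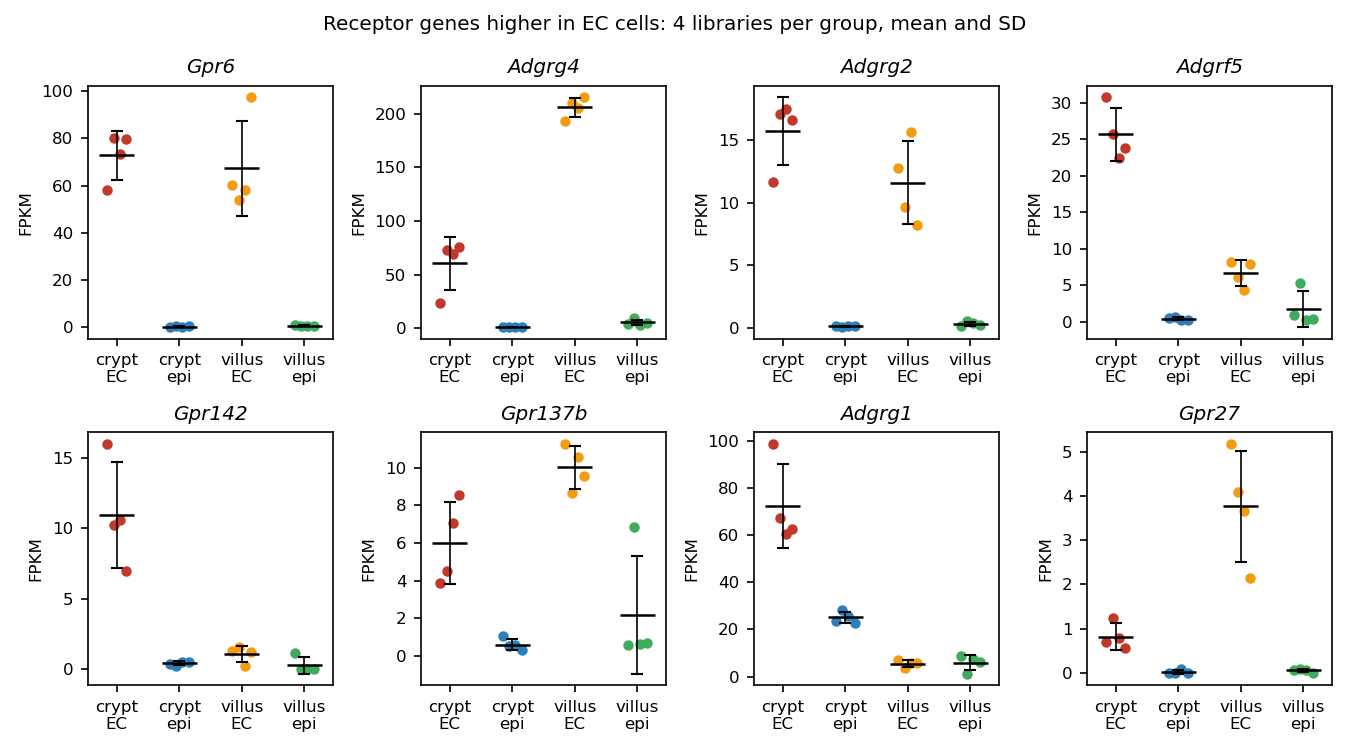
FPKM of 8 receptor genes higher in EC, by group, with 1 point per library, a line at the mean and bars for the SD (n = 4). Gpr6 and Adgrg2 sit near 0 in every epi library, Adgrg4 is highest in villus EC at 206, and Adgrg1 and Gpr142 are highest in crypt EC.

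The remaining genes of that group had lower levels. Gpr27 and Gpr85 belong to the SREB family, brain-enriched orphans with strongly conserved sequences. Gpr27 was at 0.684, 1.24, 0.785 and 0.565 FPKM in crypt EC and 5.18, 4.09, 3.66 and 2.14 in villus EC, with every epi library at 0.0819 or less. It was higher in EC by 0.82 ± 0.18 in crypt and 2.13 ± 0.18 in villus (adjusted p = 0.00142 and 4.23e-08). Gpr85 was at 1.94 ± 0.599 and 2.56 ± 0.814 in crypt and villus EC against 0.110 ± 0.0783 and 0.314 ± 0.213 in epi (1.39 and 1.43, adjusted p = 1.98e-05 and 6.99e-06). The third SREB gene, Gpr173, did not pass the filter. Gpr55, a receptor for lysophosphatidylinositol, reached 3.94 ± 0.902 in villus EC, with 0.316 ± 0.262 in villus epi (1.91 ± 0.19, adjusted p = 3.30e-07). Its crypt difference was small, with 1.99 ± 0.376 against 1.05 ± 0.376 and overlapping libraries (0.55 ± 0.19, adjusted p = 0.0281), and was not called without any of crypt EC replicates 2, 3 and 4 (adjusted p = 0.0702, 0.0660 and 0.0731) or crypt epi replicates 1, 2 and 4 (0.0688, 0.0834 and 0.0648). Gpr146, known from cholesterol metabolism in liver, was at 3.34 ± 0.587 in crypt EC and 1.63 ± 0.430 in villus EC against 0.560 ± 0.174 and 0.675 ± 0.371 in epi (1.47 and 0.66, adjusted p = 6.81e-06 and 0.00434). Its villus libraries overlap.

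In the crypt alone, Adgrg1, Adgrb3 and Gpr183 were called higher in EC. Adgrg1 (GPR56), an adhesion receptor that binds collagen III and transglutaminase 2, was at 98.9, 67.6, 60.6 and 62.6 FPKM in crypt EC and at 23.8, 28.4, 25.7 and 22.8 in crypt epi. The villus values were 5.51 ± 1.36 in EC and 5.92 ± 3.31 in epi, so the groups separate in the crypt and overlap in the villus. The crypt difference was 1.47 ± 0.35 (adjusted p = 0.00334). Gpr183, a receptor for oxysterols that steers immune cells, was at 2.84 ± 0.459 against 0.657 ± 0.0989 (1.2 ± 0.37, adjusted p = 0.0156), with summed leukocyte markers at 4.15 to 5.82 in crypt EC and 4.70 to 7.75 in crypt epi. Adgrb3, a receptor for C1q-like proteins, was at 1.23 ± 0.334 against 0.137 ± 0.0781. It passed the filter only with villus epi replicate 2 (2.48).

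Lower in EC at both sites were Adgrg7 and Gpr39. Adgrg7 (GPR128), an adhesion orphan known from intestinal epithelium, was at 33.8, 27.6, 32.7 and 33.4 FPKM in crypt epi and at 36.4, 29.7, 45.1 and 36.7 in villus epi. In EC it was at 8.09, 5.79, 6.94 and 4.83 in crypt and 1.41, 2.00, 2.79 and 2.03 in villus. All epi libraries lie above all EC libraries, and all crypt EC libraries above all villus EC libraries. The log2 fold change of EC against epi was -2.16 ± 0.18 in crypt and -3.64 ± 0.18 in villus (adjusted p = 1.09e-07 and 1.31e-10).

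Gpr39, a zinc-sensing receptor, was at 8.70, 7.37, 6.60 and 6.76 FPKM in crypt EC and 8.21, 8.67, 7.03 and 6.57 in villus EC. In crypt epi it was at 18.1, 22.2, 18.6 and 19.4, and in villus epi at 65.1, 22.3, 65.1 and 62.9. The EC libraries of crypt and villus overlap, and the epi level was higher in villus by 1.30 ± 0.27 (adjusted p = 6.77e-04, and 1.67 with adjusted p = 3.46e-09 without villus epi replicate 2). EC was lower than epi by -1.30 ± 0.27 in crypt and -2.56 ± 0.27 in villus (adjusted p = 9.87e-04 and 6.09e-07). The span of Gpr39 overlaps that of Lypd1 on the other strand. The library kit does not mark strand, so reads from any sequence that overlapping transcripts share could count for either gene, and such sharing was not measured.

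In the villus, Gpr107, Gpr157 and Gpr17 were lower in EC with no call in the crypt. Gpr107, a Golgi protein of membrane trafficking, was at 88.2, 85.6, 79.2 and 92.5 FPKM in villus epi and 36.7, 39.5, 43.7 and 40.8 in villus EC (-1.08 ± 0.18, adjusted p = 7.41e-05). Crypt levels were 30.9 ± 9.53 in EC and 33.6 ± 3.48 in epi, so villus epi stands above the other 3 groups. Gpr157, an orphan, was at 3.25, 22.7, 3.90 and 4.44 in villus epi and 0.512 ± 0.131 in villus EC (-2.26 ± 0.39, adjusted p = 1.09e-04, and -1.68 with adjusted p = 9.42e-09 without villus epi replicate 2). Gpr17, a receptor known from oligodendrocyte precursors, was at 3.89, 1.68, 3.51 and 3.39 in villus epi and at most 0.454 elsewhere (-1.69 ± 0.17, adjusted p = 3.23e-07). Its span overlaps Lims2 on the opposite strand, and without villus epi replicate 2 it does not pass the filter. Gpr20, an orphan, was lower in crypt EC (0.0761 ± 0.0779) than in crypt epi (1.58 ± 0.840) by -1.21 ± 0.17 (adjusted p = 2.94e-05).

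Gpr160 changed direction between sites. It was at 70.6, 79.9, 79.3 and 83.6 FPKM in crypt EC and 57.7, 59.5, 60.2 and 57.4 in crypt epi, a difference of 0.41 ± 0.13 (adjusted p = 0.0157). In the villus it was at 77.7, 117, 109 and 110 in EC and 155, 124, 132 and 129 in epi, a difference of -0.39 ± 0.13 (adjusted p = 0.0131). The libraries do not overlap at either site, yet the sizes are close to the shift that scaling makes. Scaling each library to a common sum moved the median of all genes by 0.46 in the crypt and 0.47 in the villus contrast, and the villus difference of Gpr160 became 0.24 (adjusted p = 0.0771). Median-ratio scaling moved the medians by -0.14 and -0.22, and the crypt difference became 0.25 (adjusted p = 0.199).

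**Figure D4:**
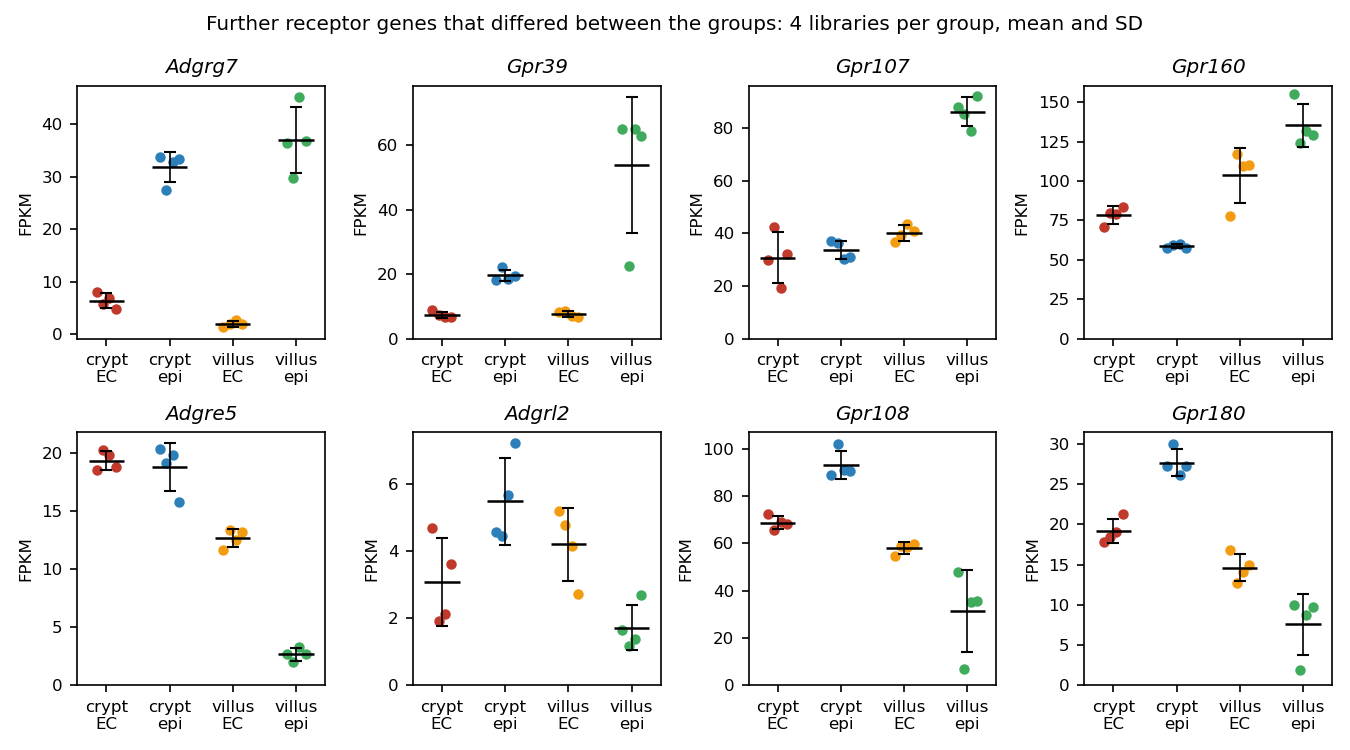
FPKM of 8 further receptor genes by group, with 1 point per library, a line at the mean and bars for the SD (n = 4). Adgrg7 and Gpr39 are higher in both epi groups, Gpr107 stands out in villus epi at 86.4, and Adgre5 is low in villus epi alone at 2.64.

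Of 8 genes for proteins of intracellular membranes, 7 reached 5 FPKM, where 3 of the 32 other orphans did. Gpr89, which sets the pH of the Golgi, was at 32.1 ± 3.62 in crypt EC and 64.9 ± 3.08 in crypt epi, with no overlap. The difference was -0.999 ± 0.372 (adjusted p = 0.0408). It was not called when any of the 12 libraries of crypt EC, crypt epi and villus EC was left out (adjusted p = 0.0510 to 0.0966), nor with libraries scaled to a common sum (-0.47, adjusted p = 0.252). It was called without villus epi replicate 2 (adjusted p = 1.90e-07), a library that enters the shared spread. In villus epi, Gpr89 was at 60.0, 14.0, 76.7 and 72.4, against 30.1 ± 1.73 in villus EC, a difference called only without replicate 2 of villus epi (-1.18, adjusted p = 3.25e-08). Its span overlaps Pdzk1 and Gja5, genes on the other strand. Gpr108, a Golgi protein, was at 54.5, 59.0, 58.6 and 59.9 in villus EC and 48.0, 6.73, 35.1 and 35.4 in villus epi (1.15 ± 0.39, adjusted p = 0.0189, and 0.56 with adjusted p = 8.85e-05 without villus epi replicate 2). Gpr180 was at 14.6 ± 1.71 in villus EC and at 9.96, 1.89, 8.78 and 9.65 in villus epi (1.04 ± 0.32, adjusted p = 0.0102, and 0.57 with adjusted p = 1.00e-04 without that library). Both villus differences missed the threshold with median-ratio scaling (adjusted p = 0.0952 and 0.0709).

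Gpr155, a lysosomal cholesterol sensor, was at 10.2, 27.5, 26.9 and 30.3 FPKM in crypt EC and 58.6, 55.5, 55.5 and 65.5 in villus EC. In epi it was at 9.35 ± 2.15 in crypt and at 67.1, 6.14, 57.6 and 65.2 in villus. The epi rise from crypt to villus was 1.87 ± 0.57 (adjusted p = 0.0115, and 2.66 with adjusted p = 3.87e-07 without villus epi replicate 2). The EC groups do not overlap. Their difference was not called with all libraries (adjusted p = 0.0934) and was 1.38 without villus epi replicate 2 (adjusted p = 3.91e-04). Gpr137 was at 13.3 ± 2.16 in crypt EC, 9.43 ± 1.4 in crypt epi and 15.4 ± 1.46 in villus EC. In villus epi it was at 17.5, 0.508, 27.8 and 23.5, and it overlaps Bad on the other strand. It was called in none of the 5 contrasts with all libraries. Without villus epi replicate 2, it rose in epi from crypt to villus by 1.18 (adjusted p = 9.01e-06) and EC lay below epi in the villus (-0.53, adjusted p = 0.00860).

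Among the other adhesion receptors, Adgre5 (CD97), which binds CD55 and Thy1, was at 19.4 ± 0.826 FPKM in crypt EC and 18.8 ± 2.06 in crypt epi, with overlapping libraries. In the villus it was at 11.7, 13.3, 12.5 and 13.2 in EC and 2.68, 1.96, 3.25 and 2.65 in epi, without overlap (1.92 ± 0.14, adjusted p = 6.43e-09). It overlaps Ddx39 on the other strand. Latrophilins, adhesion receptors that bind teneurins and Flrt proteins, were present in 3 forms. Adgrl3 had means from 7.44 to 8.59 in the 4 groups and was called in no contrast with all libraries. Its villus epi mean of 8.59, the highest, was 5.34 without replicate 2 (18.3), the lowest. Adgrl2 was at 3.09 ± 1.31 in crypt EC and 5.49 ± 1.29 in crypt epi with overlapping libraries (-0.70 ± 0.25, adjusted p = 0.0343), a call lost without crypt EC replicate 2 or 3 (adjusted p = 0.116 and 0.105) or crypt epi replicate 3 or 4 (0.0715 and 0.106). In the villus it was higher in EC, at 4.21 ± 1.10 against 1.71 ± 0.678 (0.95 ± 0.25, adjusted p = 0.00409). Adgrl1 was at 1.04 ± 0.116 and 1.62 ± 0.420 in crypt and villus EC against 0.222 ± 0.120 and 0.0507 ± 0.0780 in epi (0.75 and 1.31, adjusted p = 2.80e-04 and 4.15e-07).

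Adgrd1 (GPR133) rose from crypt to villus in both cell types. It was at 3.95, 10.8, 10.3 and 10.4 FPKM in crypt EC and 15.9, 14.5, 14.8 and 17.6 in villus EC (0.84 ± 0.28, adjusted p = 0.0376). In epi it was at 6.03, 6.10, 3.83 and 5.87 in crypt and 15, 6.85, 13.8 and 12.6 in villus (0.98 ± 0.28, adjusted p = 0.00767, and 1.21 with adjusted p = 4.61e-04 without villus epi replicate 2). The EC call was lost without crypt EC replicate 1 (0.54, adjusted p = 0.121) and without any single villus EC library (adjusted p = 0.0633 to 0.0905). Adgra3 (GPR125) was at 2.94 ± 0.283 in crypt EC and 7.59 ± 2.53 in villus EC, and at 28.1 in villus epi replicate 2 against 1.47 to 5.94 in the rest of that group. Gpr19, an orphan, was at 5.96 ± 1.65 in crypt EC and between 2.10 and 6.21 in villus epi except replicate 2 (24.3). Neither gene was called in any contrast with all libraries. Without that library, Adgra3 rose from crypt to villus EC by 1.09 (adjusted p = 0.0204) and was higher in villus EC than in villus epi by 1.06 (adjusted p = 0.0210).

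Lgr4, which binds R-spondins and thereby keeps Wnt receptors at the cell surface, was at 5.16, 5.48, 5.46 and 4.99 FPKM in crypt EC and 7.42, 9.18, 12.5 and 16.7 in crypt epi. In villus EC it was at 3.82, 3.29, 2.99 and 2.62, and in villus epi at 2.95, 311, 4.99 and 4.68. The group mean of 80.9 in villus epi thus rests on replicate 2, and without it the mean is 4.21. With all libraries, no contrast of Lgr4 was called (adjusted p = 0.475 for crypt EC against crypt epi). The shared spread then includes villus epi replicate 2, and the libraries of crypt EC and crypt epi do not overlap. Without that library, Lgr4 was lower in crypt EC than in crypt epi (-0.93, adjusted p = 8.29e-04), lower in villus EC than in crypt EC (-0.59, adjusted p = 0.0244) and lower in villus epi than in crypt epi (-1.22, adjusted p = 1.21e-04), where the fit of all libraries gives 0.26 ± 0.97 (adjusted p = 0.840). Lgr6 had no group mean above 0.535 and was not tested.

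**Figure D5:**
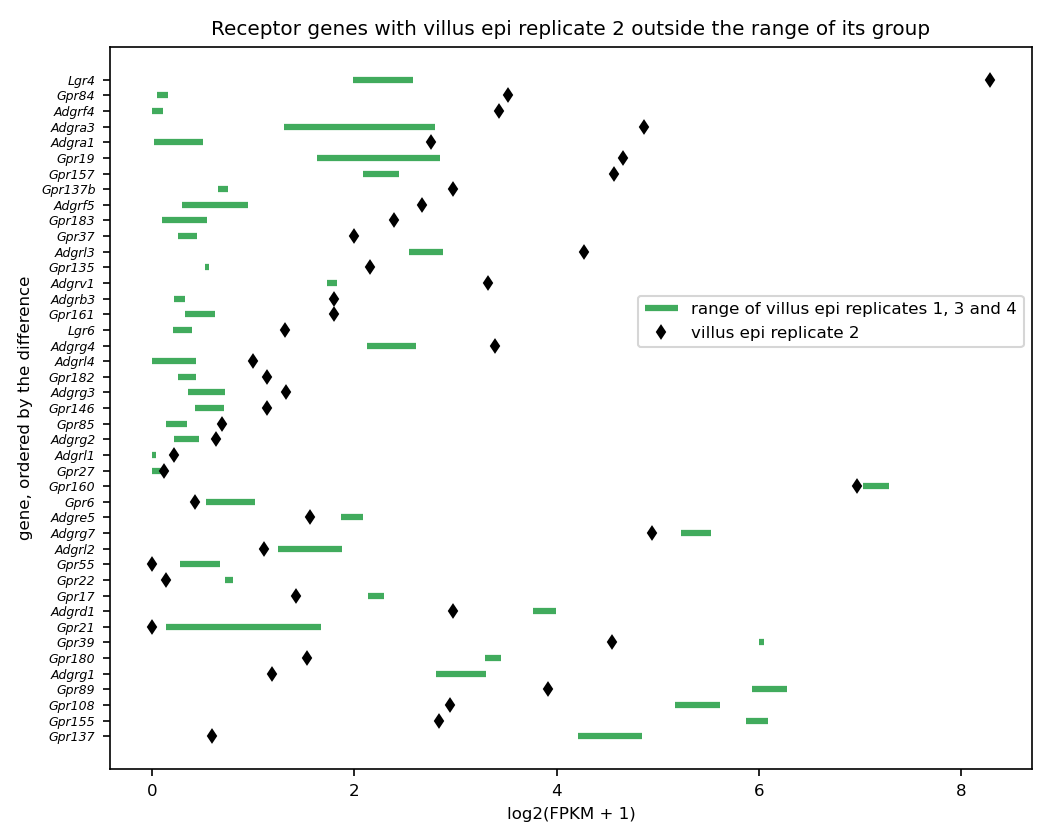
Log2(FPKM + 1) of receptor genes in villus epi replicate 2 (diamonds) and the range of the other 3 villus epi libraries (bars), for genes whose value in replicate 2 lies outside that range, ordered by the difference. Lgr4 (311 against at most 4.99 FPKM) is at the top and Gpr137 (0.508 against at least 17.5) at the bottom, while Gpr160 (124 against at least 129) lies next to the range.

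Villus epi replicate 2 also held high values of genes that were low in the rest of its group. Gpr84, a medium-chain fatty acid receptor of immune cells, was at 10.5 FPKM there and at most 0.117 in the other 3. It was between 1.10 and 2.31 in the EC libraries and at most 0.430 in crypt epi, and was called in no contrast. Without that library, Gpr84 was higher in EC by 1.24 in crypt (adjusted p = 9.20e-06) and 1.38 in villus (adjusted p = 3.97e-06). Adgrf4 was at 9.77 and Adgra1 at 5.76, with no other library at 1 FPKM for either gene. The endothelial markers summed to 36.7 there against at most 11.1, and Adgrf5 was at 5.37 against at most 0.933. The part of such cells in these values was not tested.

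From crypt to villus, 6 of 38 receptor genes rose in EC and 8 fell, beside 10.3% and 16.2% of all tested genes (26.5% either way). The median was 0.04 for the receptor genes and -0.05 for all. With libraries scaled to a common sum, 4 rose and 9 fell, beside 7.96% and 24.5% of all genes. Leaving out villus epi replicate 2 gave 10 and 12, beside 19.3% and 27.6%, and leaving out villus EC replicate 2 or replicate 4 gave 3 that rose. The falls in EC were led by Adgrg1 (-3.49 ± 0.35, adjusted p = 2.93e-06), Gpr142 (-2.51 ± 0.29, adjusted p = 1.13e-05), Adgrf5 (-1.82 ± 0.39, adjusted p = 0.00248) and Adgrg7 (-1.28 ± 0.18, adjusted p = 7.20e-05). These 4 showed no overlap between crypt and villus EC libraries. All 4 Paneth and all 4 stem cell markers listed were also called lower in villus EC, and their part in these falls was not tested. The rises were led by Adgrg4 (1.88) and Gpr27 (1.36 ± 0.18, adjusted p = 3.43e-05). Gpr6 was called in neither site contrast.

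In the other epithelial cells, 9 receptor genes were higher and 7 lower in villus than in crypt, beside 19.6% and 35.4% of all genes (55% either way). The median was 0.22 for the receptor genes and -0.19 for all. Gpr107 rose by 1.34 ± 0.18 (adjusted p = 1.14e-05) and Gpr160 by 1.18 ± 0.13 (adjusted p = 9.86e-07). Adgre5 fell by 2.45 on the log2 scale (adjusted p = 7.47e-10), Adgrg1 by 2.11 (adjusted p = 1.11e-04, and 1.64 without villus epi replicate 2) and Gpr180 by 1.92 (adjusted p = 9.51e-05, and 1.45 without it). Both cell types shared a rise of Adgrd1, Adgrg4 and Gpr160 and a fall of Adgre5 and Adgrg1. All 7 EC markers listed also rose in epi, and the part of EC RNA in the epi rises was not tested. The EC rise of Gpr160 (0.38 ± 0.13, adjusted p = 0.0341) was not called without any of crypt EC replicates 1, 2 and 3 or villus EC replicates 2, 3 and 4 (adjusted p = 0.0635 to 0.115). Gpr55 rose in EC (0.72 ± 0.19, adjusted p = 0.0105) and fell in epi (-0.65 ± 0.19, adjusted p = 0.00932). The site contrasts and the cell-type contrasts share libraries, so they are not independent.

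The interaction tests whether the difference of EC and epi was itself different in the villus. It was called for 20 of 38 receptor genes, with 8 higher in the villus and 12 lower, beside 26.9% and 16% of all tested genes (42.9% either way). Medians were -0.31 and 0.21. The largest falls were those of Adgrf5 (-2.41 ± 0.55, adjusted p = 0.00241) and Gpr142 (-2.28 ± 0.41, adjusted p = 3.77e-04), whose EC excess was larger in the crypt than in the villus. With a pseudocount of 0.1, the Gpr142 interaction was not called (-1.91, adjusted p = 0.155). Adgrg7 (-1.48 ± 0.25, adjusted p = 2.54e-04) and Gpr39 (-1.26 ± 0.38, adjusted p = 0.0144) had a larger EC deficit in the villus. The largest rises were those of Adgre5 (1.87 ± 0.19, adjusted p = 1.89e-06) and Adgrl2 (1.65 ± 0.36, adjusted p = 0.00158), with further rises of Gpr108 (1.58), Gpr180 (1.55), Gpr55 (1.36) and Gpr27 (1.31). Without villus epi replicate 2, these 4 were 0.99, 1.08, 1.24 and 1.33. Gpr108 was not called without any of crypt EC replicates 2 and 4, crypt epi replicate 2 and villus EC replicates 2, 3 and 4 (adjusted p = 0.0508 to 0.0557). The count of higher genes was 5 without crypt epi replicate 2. Adgrg1 (-1.39 ± 0.50, adjusted p = 0.0361) was called only when crypt EC replicate 3 or 4, crypt epi replicate 2, villus EC replicate 1, villus epi replicate 2 or no library was left out, and not without any other (adjusted p = 0.0519 to 0.0758). Gpr6, Adgrg4, Adgrg2 and Gpr137b were not called for interaction.

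The 63 genes below 5 FPKM in every group include 42 below 1 in all of them. No member of adhesion subfamily B or of the SREB family reached 5. In adhesion subfamily G it was reached by 4 of 6, namely Adgrg1, Adgrg2, Adgrg4 and Adgrg7, and in subfamily F by Adgrf5 out of 5. Among receptors for lipids, metabolites or ions, 2 of 11 reached it, Gpr39 and Gpr142. Gpr21 had an uneven spread in crypt EC, from 1.84 to 8.34, and its span overlaps Rabgap1.

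Genes known to work with these receptors were taken from lists of ligands and signalling partners. For the counts of each list, the background of the crypt contrast was 23.2% of all tested genes up in EC and 20% down. For the villus contrast it was 40.6% and 21.6%. The lists are short, and an excess over this background was not tested. Of the R-spondin axis, 7 of 9 genes were in the table and 6 were tested. The ligand gene Rspo4 was higher in EC at both sites, at 3.16 ± 0.648 and 6.53 ± 2.81 FPKM in crypt and villus EC against 0.0526 ± 0.105 and 0.0163 ± 0.0201 in epi (1.97 and 2.81, adjusted p = 3.33e-06 and 2.62e-08). Lgr5, the stem cell relative of Lgr4, was lower in crypt EC (14.5 ± 2.03) than in crypt epi (27.8 ± 7.21) by -0.87 ± 0.30 (adjusted p = 0.0271), and the other 4 tested were called at neither site. Of the latrophilin ligands, 10 were in the table and 6 tested, with 5 higher and 1 lower in the crypt and 4 higher in the villus. Flrt1 (2.86 and 3.39), Tenm4 (2.51 and 3.45), Tenm1 (0.71 and 0.85) and Nrxn2 (1.68 and 0.89) were higher at both sites, and Flrt3 was lower in crypt EC (-1.54). Tenm1 was at 4.93 in villus epi replicate 2, within the villus EC range of 4.47 to 5.78, and from 1.25 to 2.54 in the rest of its group. Tenm4 (1.98 against at most 0.0939) and Nrxn2 (0.999 against at most 0.228) were also highest there within villus epi.

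Of 13 ligands of other adhesion receptors, 7 were tested, with 1 higher and 2 lower in EC of the crypt and 2 higher and 3 lower in the villus. Prnp, which encodes the prion protein, a ligand of Adgrg6, was at 577 ± 84.2 and 916 ± 60.4 FPKM in crypt and villus EC against 11.6 ± 2.65 and 8.24 ± 5.85 in epi (5.53 and 6.95, adjusted p = 3.87e-08 and 1.16e-09), while Adgrg6 itself did not pass the filter. Tgm2, which encodes the Adgrg1 ligand transglutaminase 2, was lower in EC at both sites (-1.82 and -2.44). Of 3 flamingo adhesion receptors (Celsr genes), which the rule leaves out, 2 were higher and 0 lower in EC at each site. Of 6 ligands of orphan receptors in the table, 4 were tested, with 1 higher and 1 lower in the crypt and 3 higher and 1 lower in the villus. Of 11 tested G protein alpha subunits, 4 rose and 3 fell in EC of the crypt, beside 23.2% and 20% of all tested genes. In the villus, 3 rose and 3 fell, beside 40.6% and 21.6%. Gnao1, the Go subunit, was at 49.8 ± 7.36 and 43.5 ± 2.33 in EC against 1.03 ± 0.0695 and 1.35 ± 1.01 in epi (4.64 and 4.34), and Gnaz was higher at both sites (3.36 and 2.38). Gnaz was at 6.56 in villus epi replicate 2 and from 0.780 to 1.21 in the rest of that group. Gnas, the Gs subunit, was slightly lower in crypt EC (-0.45, adjusted p = 0.0289). Of 7 arrestins and receptor kinases, 3 rose and 1 fell in EC of the crypt, and 4 rose and 1 fell in the villus, led by Grk3 at 23.2 ± 1.13 and 24.1 ± 0.740 against 2.65 ± 0.453 and 0.411 ± 0.171 (2.74 and 4.16).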

How the data were processed

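RNA was measured in 16 libraries of sorted cells, 4 per group. The authors deposited FPKM values per gene. Per the labels' protocols, full-length cDNA was amplified with the SMART-Seq HT kit and libraries made with Nextera XT, which keeps no strand. The submitters' processing notes name bcl2fastq 2.20, kallisto, sleuth and build mm10. How libraries were scaled is not given in the sources used here, and depth per library is unknown.

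Values were used as deposited, with a pseudocount of 1 before log2. Genes with at least 1 FPKM in at least 4 of 16 libraries were tested (14089 genes). limma 3.58.1 in R 4.3.3 fitted 4 group means to all 16 libraries, with a variance trend and no replicate block. Tests were two-sided, with Benjamini-Hochberg adjustment within each of 5 contrasts over all tested genes and a call at an adjusted p below 0.05. Data were simulated for crypt EC against crypt epi with 14089 genes, of which 200 were changed. All of these had a mean above 2 on the log2 scale. Of the 100 changed by 1 log2 unit 53% were recovered, and of the 100 changed by 2 units 82%, with 4.93% of calls false. In the real contrast 43.2% of all tested genes were called, so these rates may not hold there, nor for genes of lower level. The simulated spread of a gene was the same in every group, with no library apart as villus epi replicate 2 is. Rates for data with such a library were not measured.

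The text names all receptor genes with a group mean of at least 5, those called between cell types with a log2 change of 1 or more and no overlap of libraries, and Lgr4, Lgr6 and Adgrg4. Adgrb3, Gpr21, Gpr84, Adgrf4 and Adgra1 were added after their values were seen. The values of 1 gene of the set are not reported here. The receptor genes and the lists were chosen with earlier results of these data known. Positions are those of GENCODE M21 on mm10, which matched all 87 genes. Alternatives were other pseudocounts, filters, scalings, replicate blocks and weights, and leaving out each library.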

Additional observations from a re-analysis of the deposited data

Results flagged for a closer look

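The gap between the highest or lowest library and its nearest neighbour was compared with the range of the group (Dixon's ratio, at its 95% critical value) in 100 groups of libraries of the receptor genes with a mean of 5 or more or another reason to be named. It was exceeded in 18, and chance flags about 1 in 20. Villus epi replicate 2 gave 10 of them. It was the highest library of its group for Lgr4 (311 FPKM), Adgra3 (28.1), Gpr157 (22.7), Adgrl3 (18.3), Gpr137b (6.87), Adgrf5 (5.37) and Gpr183 (4.24), and the lowest for Gpr39 (22.3), Gpr155 (6.14) and Gpr180 (1.89). Crypt EC replicate 1 gave 5, all as the lowest of its group: Adgrg4 (23.7), Adgrg2 (11.7), Gpr155 (10.2), Adgrd1 (3.95) and Gpr55 (1.43). The others were Gpr6 in villus EC replicate 4 (97.3, the highest), Adgrg7 in crypt epi replicate 2 (27.6, the lowest) and Adgrd1 in crypt epi replicate 3 (3.83, the lowest). Summed non-epithelial markers in villus epi replicate 2 are given in the report, and their part in these values was not tested.

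For 18 named genes the difference of EC and epi differed between villus and crypt by the limma interaction test. The villus difference minus the crypt difference, in log2 units, was above 0 for Adgre5 (1.87), Adgrl2 (1.65), Gpr108 (1.58, and 0.99 without villus epi replicate 2), Gpr180 (1.55), Gpr55 (1.36), Gpr27 (1.31), Gpr20 (1.31) and Adgrl1 (0.56, not called without crypt epi replicate 1 or 2, adjusted p = 0.0501 and 0.0545). It was below 0 for Adgrf5 (-2.41), Gpr142 (-2.28), Gpr157 (-1.72), Gpr17 (-1.59), Adgrg7 (-1.48), Adgrg1 (-1.39), Gpr39 (-1.26), Gpr107 (-0.92), Gpr146 (-0.81) and Gpr160 (-0.80). Gpr142, Adgrg1 and Gpr146 were not called with a pseudocount of 0.1 (adjusted p = 0.155, 0.104 and 0.0711), and Gpr157 was not called with a pseudocount of 5 (adjusted p = 0.0674).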

How the results depend on the processing

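Of 160 results of named genes, 85 were called. Of these, 65 kept direction and call under every one of 27 alternatives that could be fitted. Sizes were less stable. A large move in size was flagged for 49 results with a pseudocount of 5, 26 with 0.1 and at most 9 under any other alternative. With a pseudocount of 5, the villus difference of Gpr142 was 0.20 in place of 0.73, and the Gpr157 interaction -0.90 in place of -1.72. Log2 sizes, and comparisons of sizes between sites, thus depend on the pseudocount. The count of genes at 5 FPKM ran from 23 to 25 when single libraries were left out. In crypt EC against crypt epi, 8 genes were higher with a filter at 5 FPKM in 4 libraries. Lower were 3 with no filter, 3 with the stricter filter, 2 with libraries scaled to a common sum, 10 with array weights and 9 with only the 2 groups. In villus EC against villus epi, 9 were higher with the stricter filter. In villus EC against crypt EC, the stricter filter gave 3 higher and 5 lower, and array weights gave 11 and 14. The stricter filter left 4 lower in villus epi against crypt epi, and 3 higher and 7 lower for the interaction. It tests fewer genes. Array weights gave villus epi replicate 2 the lowest weight of all libraries, 0.0221, and the crypt fit of only the 2 groups did not hold it. Of all tested genes, 33.7% were lower in crypt EC than in crypt epi with array weights and 31.3% with only the 2 groups, beside 20% in the main fit. The cause of the shifts not made by the stricter filter was not tested. With single libraries left out, higher and lower counts ran from 13 to 19 and 2 to 9 in the crypt, 14 to 19 and 5 to 7 in the villus, 3 to 10 and 6 to 12 between EC sites, 8 to 9 and 6 to 9 between epi sites, and 5 to 10 and 10 to 13 for the interaction. Among single genes, Gpr160 in villus EC against villus epi turned from -0.39 to 0.24 with the common sum, and Lgr4 in villus epi against crypt epi from 0.26 to -0.95 with array weights. Lgr4 ran from -1.22 (without villus epi replicate 2) to 0.88 (without villus epi replicate 1) as single libraries were left out. By the replicate numbers of the titles, 4 of 24 same-numbered pairs correlated above 0.1 (range -0.27 to 0.17), and 3 of 16 libraries correlated best with their own number. By the library number in the column names, 1 of 10 pairs correlated above 0.1 (range -0.27 to 0.14), and 0 libraries correlated best with their own number. Low correlations cannot show that the libraries were unpaired. With the title number as a replicate block, 4 genes rose between EC sites in place of 6, where Gpr160 (adjusted p = 0.0588) and Adgrd1 (0.0647) were lost. With the library number as a block, crypt Gpr89 was lost (0.0501). Without read counts, no low value can be told from 0 by counting error.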
